A study of Mus musculus with 2 samples.

Results

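Signalling by fibroblast growth factors was followed through 10 genes in single cells of the newborn mouse eye cup: the ligand gene Fgf15, the receptor genes Fgfr1, Fgfr2 and Fgfr3, the Sprouty genes Spry1, Spry2 and Spry4, the phosphatase gene Dusp6, and the ETS factor genes Etv4 and Etv5. They were chosen by symbol, and all 10 were among the 31053 genes counted. There was 1 library per genotype, each a pool of 3 eye cups at postnatal day 0, from Myrf fl/fl mice (control) and from Rx>cre Myrf fl/fl mice (mutant). Both genotypes carry 2 floxed copies of Myrf, so the controls differ from the mutants by lacking cre. Rx>cre makes the recombinase in the early eye field, the source of both the neural retina and the retinal pigment epithelium (RPE), so cre acts in both tissues, while cells from outside the eye field are not targeted. Cornea, lens and optic nerve had been removed, and the cells were then dissociated with papain.

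A fibroblast growth factor binds a receptor tyrosine kinase at the cell surface, which signals through adaptors, Ras and the kinases Raf, MEK and ERK to ETS factors such as ETV4 and ETV5. The same signal switches on its own inhibitors: Sprouty proteins act upstream of ERK, and DUSP6 removes phosphate from ERK in the cytoplasm. In the vertebrate optic vesicle this pathway favours neural retina over RPE, and Etv4, Etv5, Spry and Dusp6 transcripts are widely used as a readout of it.

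Values are unique molecular identifiers (UMIs, 1 per captured transcript) summed over the cells of a class and scaled to 1000000 UMIs of that class (CPM). Because each genotype is 1 library, no test between genotypes was possible and the values carry no replicate error. Intervals are exact 95% intervals that cover counting error only, Poisson for a level and exact conditional for a ratio of 2 counts. A log2 ratio is mutant over control of CPM + 1, which understates differences of low genes, while its interval is that of the plain ratio. A gene was measured in a class with at least 50 UMIs over both libraries, and 1.5-fold is the size at which a difference is named. Libraries capture the 3′ ends of transcripts, so levels are compared between classes for 1 gene and never between genes.

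After filtering, 12516 control cells and 10851 mutant cells remained, with a median of 4258 and 4813 UMIs, and 47 barcodes occurred in both libraries. Clusters were named only from marker genes, as "X-like", and 8 classes held at least 100 cells in each library. The RPE-like class rested on 8 of 10 RPE markers and held 489 control cells (3.91%) and 207 mutant cells (1.91%). At a finer clustering (resolution 2 in place of 1) no cluster met the naming rule for this class. Its cells differed in depth, with medians of 2534 UMIs (control) and 10451 UMIs (mutant). Rpe65 was at 0 in the mutant RPE-like cells, and Pax3, which marks melanocytes, was at 0 in both libraries. Sex was unbalanced: Xist-only cells, which hold Xist but lack Y-linked UMIs, made up 7.22% of the control and 70.5% of the mutant, and Y-only cells, the reverse, made up 51.2% and 13.9%. Myrf itself had 751 UMIs (233 CPM) in control and 66 UMIs (27.4 CPM) in mutant RPE-like cells, a log2 ratio of −3.04 (−3.47 to −2.72).

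In RPE-like cells the receptor Fgfr2 and the readout genes Spry2, Dusp6 and Etv5 were lower in the mutant, Fgf15 was higher at a very low level, and Fgfr1, Fgfr3, Spry1 and Spry4 lay within 1.5-fold. In progenitor-like cells, which hold most of the Fgf15 transcripts, no measured member passed 1.5-fold. The 4 genes that were lower in RPE-like cells were looked at in sequence as well. Promoter windows from RefSeq were searched for 6 of the 10 members, a number that does not show which promoters RefSeq lacks. The 250 bases before the start of transcription are shown for these 4 genes, because they were lower together. The bases are on GRCm38.p6 and written 5′ to 3′ on the strand of the gene. Capitals mark the ETS core GGAA on either strand.

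Fgfr2, chr7:130266809-130267058, minus strand: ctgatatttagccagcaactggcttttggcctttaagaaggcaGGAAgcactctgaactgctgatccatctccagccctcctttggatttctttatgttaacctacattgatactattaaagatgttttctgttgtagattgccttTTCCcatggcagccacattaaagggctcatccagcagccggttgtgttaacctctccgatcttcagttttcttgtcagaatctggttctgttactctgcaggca

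Spry2, chr14:105896820-105897069, minus strand: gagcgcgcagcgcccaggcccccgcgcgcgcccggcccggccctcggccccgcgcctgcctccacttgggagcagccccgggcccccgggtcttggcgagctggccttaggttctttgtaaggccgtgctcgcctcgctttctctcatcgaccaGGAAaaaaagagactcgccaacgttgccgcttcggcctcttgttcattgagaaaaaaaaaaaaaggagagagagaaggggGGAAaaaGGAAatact

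Dusp6, chr10:99262981-99263230, plus strand: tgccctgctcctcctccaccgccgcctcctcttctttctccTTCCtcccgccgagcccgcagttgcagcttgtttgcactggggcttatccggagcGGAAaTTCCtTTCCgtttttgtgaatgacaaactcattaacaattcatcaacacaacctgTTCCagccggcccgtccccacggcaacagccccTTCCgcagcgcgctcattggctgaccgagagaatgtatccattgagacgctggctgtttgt

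Etv5, chr16:22439571-22439820, minus strand: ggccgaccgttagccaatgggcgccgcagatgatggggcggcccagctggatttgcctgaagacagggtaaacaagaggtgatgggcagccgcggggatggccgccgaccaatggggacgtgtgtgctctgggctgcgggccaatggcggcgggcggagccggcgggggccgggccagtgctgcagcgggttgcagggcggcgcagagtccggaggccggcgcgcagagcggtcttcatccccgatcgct

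The ETS core occurred 6 times in the Dusp6 window, 3 times in that of Spry2, 2 times in that of Fgfr2 and 0 times in that of Etv5, while a further Etv5 start, at chr16:22438369-22438618, held 4. Of 32851 promoter windows of the same length 93.4% hold at least 1 such core, so its presence separates these genes from few others. The longer ETS motif CCGGAA (12.0% of all windows), the MYRF motif CTGGCAC or CTGGTAC (5.93%) and the cyclic AMP response core TGACG (17.8%) were searched on both strands and were not in any window of the 6 members. CCGGAA contains the ETS core, and neither of the other motifs does. The short ETS core was added to the search after the longer motifs were found to be absent from these windows. No binding or chromatin was measured, so these letters are context for the expression values below.

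The receptor genes had different maps across the eye cup. Fgfr2, whose epithelial form receives signals from mesenchymal ligands, was a gene of the RPE-like class, with 207 CPM (192 to 223) in the control. The next classes in the control were pericyte-like cells at 41.0 CPM, mesenchyme or fibroblast-like cells at 26.3 CPM and endothelial-like cells at 10.7 CPM, each apart from its neighbour by counting interval. Progenitor-like cells followed at 4.24 CPM, and photoreceptor-, amacrine- and neurogenic-like cells, between 1.99 and 2.66 CPM, overlapped one another. RPE-like cells gave 42.3% of all Fgfr2 UMIs of the control library and 20.9% of those of the mutant. Among smaller classes, surface epithelium-like cells were at 110 CPM (control) and 115 CPM (mutant).

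In mutant RPE-like cells Fgfr2 was at 80.6 CPM (69.6 to 92.8), from 194 UMIs against 668 in the control. The log2 ratio was −1.35 (−1.60 to −1.13), or 2.57-fold lower. Among the 8 main classes it remained the highest for Fgfr2 in the mutant, but the gap to pericyte-like cells, at 50.7 CPM, narrowed. Fgfr2 was at 26.3 and 36.2 CPM in mesenchyme or fibroblast-like cells (log2 ratio 0.44, 0.24 to 0.68) and at 41.0 and 50.7 CPM in pericyte-like cells (0.30, −0.02 to 0.63). On few UMIs it was lower in the mutant in white blood-like cells (18 and 0 UMIs) and amacrine-like cells (7 and 1), with intervals apart from 0, and in endothelial-like cells (35 and 14, log2 ratio −0.50, −1.57 to 0.37). The annotated span of Fgfr2 in GENCODE M21, chr7:130162451-133123350 on GRCm38, includes a long transcript that crosses 36 other genes on the same strand, so reads in shared exons may have been left uncounted in both libraries alike.

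Fgfr1, the receptor of mesenchyme and neural tissue, was at 175 CPM in both pericyte-like and mesenchyme or fibroblast-like cells of the control, which overlapped. RPE-like cells came next, at 63.5 CPM (55.1 to 72.8) in the control and 65.6 CPM (55.8 to 76.7) in the mutant. The log2 ratio of 0.05 had an interval from −0.26 to 0.35, which leaves out a 1.5-fold difference in either direction. Progenitor-like cells were at 37.8 and 37.9 CPM, and their interval of −0.14 to 0.15 was narrower still. Pericyte-like cells were at 175 CPM (control) and 144 CPM (mutant), a log2 ratio of −0.28 (−0.46 to −0.11). Photoreceptor-like cells passed 1.5-fold on 30 and 22 UMIs (−0.73), with an interval of −1.66 to 0.04 that includes 0.

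Fgfr3 rested on few UMIs. Its highest main class was RPE-like in both libraries, at 20.1 CPM (control) and 17.9 CPM (mutant), but the control interval overlapped that of endothelial-like cells at 14.0 CPM, and the mutant interval overlapped that of pericyte-like cells at 13.9 CPM. The log2 ratio in RPE-like cells was −0.16 (−0.76 to 0.41), which does not leave out 1.5-fold lower. Endothelial-like cells had 46 and 14 UMIs, a log2 ratio of −0.87 (−1.93 to −0.06). Surface epithelium-like cells lay above the main classes, at 35.7 and 47.4 CPM. Amacrine-like cells had 0 UMIs in the control, where 3 counts would be 1.00 CPM, and progenitor-like cells had 19 and 8 UMIs.

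**Figure D1:**
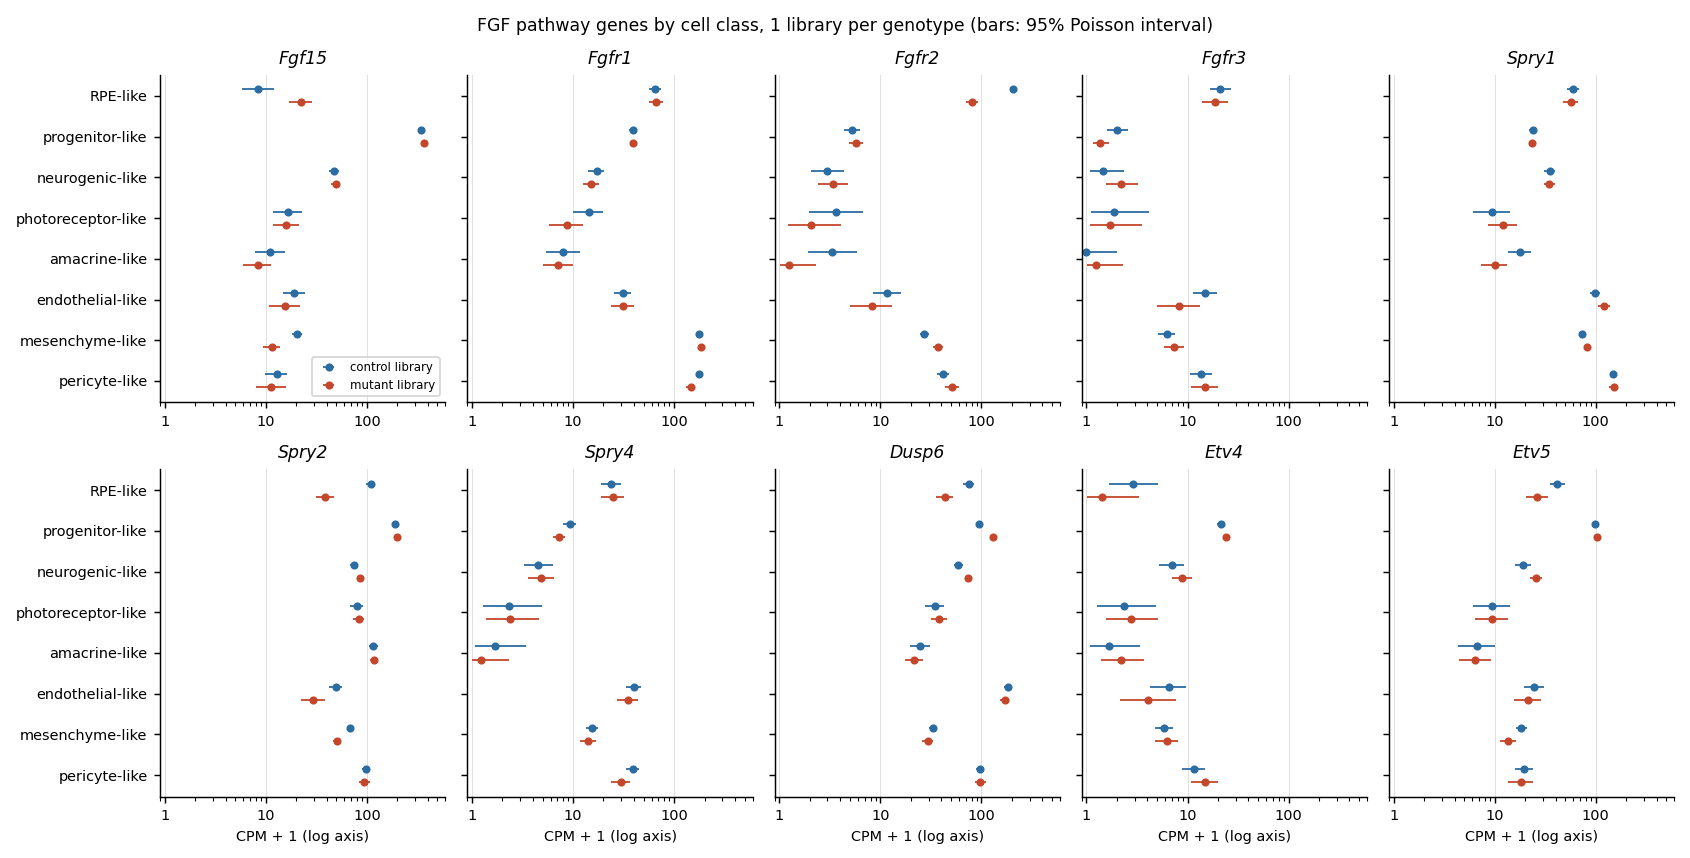
CPM + 1 on a log axis for each of the 10 genes in 8 cell classes, with blue points for the control library and red points for the mutant library and bars for 95% Poisson intervals. Fgf15 stands at 344 and 371 CPM in progenitor-like cells and at 48.4 CPM or less in every other class plotted, and Fgfr2 stands apart in RPE-like cells at 207 CPM (control) and 80.6 CPM (mutant).

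Among the inhibitors and target genes, Spry2 showed the largest fold in RPE-like cells. The control had 349 UMIs (108 CPM, 97.0 to 120) and the mutant 90 UMIs (37.4 CPM, 30.1 to 45.9), a log2 ratio of −1.51 (−1.88 to −1.19), or 2.89-fold lower. In the control the RPE-like class was behind progenitor-like and amacrine-like cells for Spry2, and overlapped amacrine-like cells at 115 CPM and pericyte-like cells at 96.8 CPM. In the mutant only endothelial-like cells were lower among the 8 classes, at 28.5 CPM, and the intervals overlapped. White blood-like cells, taken as a measure of free RNA for this gene, were at 33.8 and 24.6 CPM. The mutant RPE-like level lies close to them by interval (14.3 to 39.3 in the mutant). Red blood-like cells were lower, at 14.0 and 15.1 CPM (13 UMIs in each library). Whether white blood-like cells transcribe Spry2 themselves was not tested.

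Dusp6 had 239 UMIs (74.0 CPM) in control and 102 UMIs (42.4 CPM) in mutant RPE-like cells, a log2 ratio of −0.79 (−1.15 to −0.46), or 1.75-fold lower. Etv5 had 131 UMIs (40.6 CPM) and 61 UMIs (25.3 CPM), a log2 ratio of −0.66 (−1.14 to −0.23), or 1.60-fold lower. Etv5 is the least secure of the 4: its interval reaches below 1.5-fold, and after each cell was thinned to 1000 UMIs it rested on 19 and 9 UMIs with a log2 ratio of 0.037. Etv4 was not measured in RPE-like cells, with 6 and 1 UMIs.

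The other Sproutys did not move with Spry2. Spry1 was at 58.8 CPM in control and 55.2 CPM in mutant RPE-like cells, a log2 ratio of −0.09 with an interval from −0.42 to 0.24 that leaves out 1.5-fold. Spry4 was at 22.9 and 23.7 CPM, a log2 ratio of 0.04 (−0.48 to 0.56). Summed, the 6 inhibitor and target genes (Spry1, Spry2, Spry4, Dusp6, Etv4, Etv5) were at 306 CPM in control and 184 CPM in mutant RPE-like cells, a log2 ratio of −0.73 (−0.90 to −0.57). Spry2 and Dusp6 are part of that sum, so it is not separate from their differences.

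In RPE-like cells 4 of 9 measured members were at least 1.5-fold lower, where 9.95% of all 8956 measured genes were, and 1 of 9 was at least 1.5-fold higher, where 6.17% were. The median log2 ratio of the 9 was −0.16, against 0.0074 over all measured genes of the class. The members were picked with earlier results of these data known, and these counts describe them and are not a test.

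**Figure D2:**
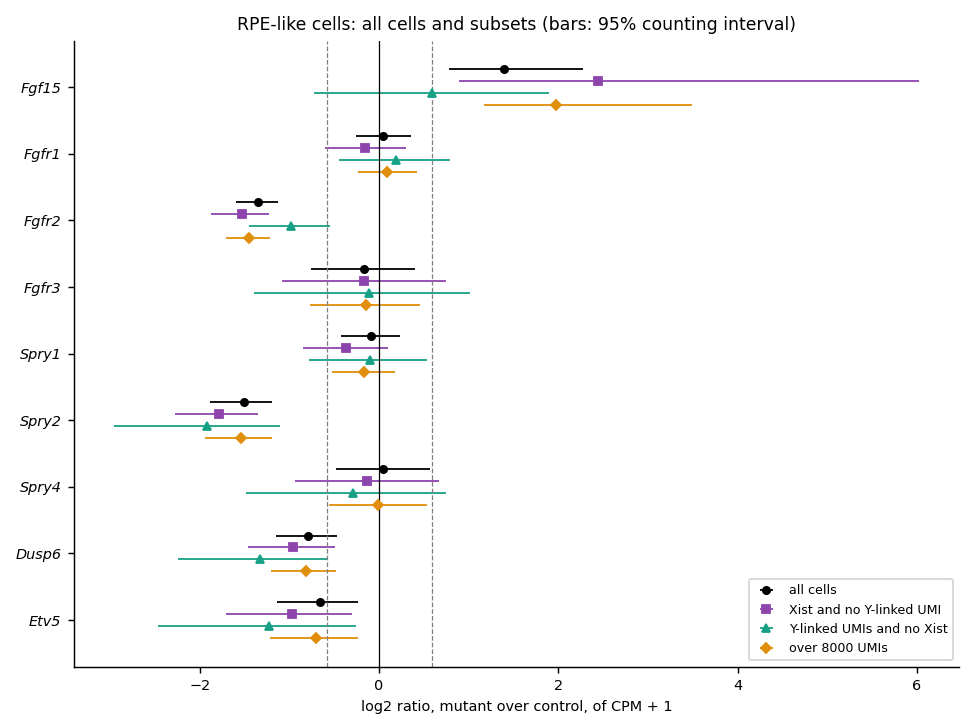
Log2 ratio of mutant over control of CPM + 1 for 9 genes in RPE-like cells, with black circles for all cells, purple squares for Xist-only cells, green triangles for Y-only cells, and orange diamonds for cells over 8000 UMIs. Bars are 95% counting intervals and dashed lines mark 1.5-fold. Fgfr2, Spry2, Dusp6 and Etv5 lie below 0 with all bars apart from 0 in each of the 4 sets, and Fgf15 has the widest bars.

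The imbalance of sex and depth was followed in the same cells. Among Xist-only RPE-like cells (80 control and 81 mutant cells), the log2 ratio was −1.53 (−1.87 to −1.22) for Fgfr2, −1.78 (−2.28 to −1.35) for Spry2, −0.96 for Dusp6 and −0.97 for Etv5. Among Y-only cells (130 and 36 cells) the same genes were at −0.98, −1.92, −1.33 and −1.23. Among cells over 8000 UMIs (152 and 117 cells) they were at −1.45, −1.54, −0.82 and −0.70. The 4 genes were thus lower in each of these sets, with intervals apart from 0. In cells of up to 4000 UMIs (291 and 66 cells) they were lower as well, but on 5 or fewer mutant UMIs each, and the intervals of Fgfr2 (−2.87 to 0.12), Dusp6 and Etv5 include 0. Fgfr1, Fgfr3, Spry1 and Spry4 had intervals that include 0 in every set.

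Other markers in the class also differed. The summed level of the 10 RPE markers was 28361 CPM (control) and 18907 CPM (mutant), and that of 9 retinal progenitor markers 1515 and 1826 CPM. The summed level of 9 mesenchyme or fibroblast markers in RPE-like cells was 1418 CPM (control) and 323 CPM (mutant), of 6 red blood cell markers 704 and 93.0 CPM, and of 8 lens markers 1347 and 962 CPM. Fgfr2 is at a lower level in mesenchyme or fibroblast-like cells (26.3 CPM) than in RPE-like cells, and so are Spry2 (67.1 CPM), Dusp6 (32.2 CPM) and Etv5 (17.4 CPM) in the control. What part these transcripts have in the differences was not tested. Fos and Egr1 are early genes downstream of ERK that also rise during dissociation. Over all RPE-like cells they were at 297 and 402 CPM (log2 ratio 0.43) and at 107 and 150 CPM (0.48). Both were opposite in direction to Spry2 and Dusp6. Over 8000 UMIs they were at 0.28 and 0.32. Up to 4000 UMIs they were at −0.75 (31 and 4 UMIs) and −0.26 (11 and 2 UMIs), with intervals that include 0. Fos was at 0.28 in Xist-only and 0.67 in Y-only cells. Egr1 was at 0.30 and 0.27 there, with intervals that include 0. In sums over a class, fewer cells with a transcript and fewer transcripts per cell cannot be told apart, and shares of cells with a UMI do not separate them either.

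Thinned to 1000 UMIs per cell, 15.1% of 390 control cells (11.7% to 19.1%, exact Clopper-Pearson) and 4.44% of 180 mutant cells (1.94% to 8.57%) held an Fgfr2 UMI, and the intervals did not overlap. Unthinned shares were 40.7% and 43.5%, at medians of 2534 and 10451 UMIs. For Spry2 the thinned shares were 8.46% and 3.33%, and for Dusp6 6.92% and 3.89%, with overlapping intervals. For Etv5 they were 4.36% and 4.44%. White blood-like cells, which should lack Fgfr2, held it in 1.71% of 234 cells from the control library and in 0 of 66 from the mutant library, thinned in the same way, which allows a share of up to 4.55% (3 counts), at medians of 2890 and 8565 UMIs. By share alone, Fgfr2 in mutant RPE-like cells is therefore not above what that background allows. In CPM over all cells the mutant RPE-like level of Fgfr2 was 80.6 (194 UMIs). Mutant white blood-like cells held 0 Fgfr2 UMIs, and control ones 18 (10.1 CPM). For Spry2 the white blood-like share was 8.12% in the control, so the control share of Spry2 in RPE-like cells is not above that background, whereas its CPM in all cells is (108 against 33.8). Dusp6 is transcribed by white blood-like cells themselves, at 193 and 221 CPM, and has no such background class.

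Fgf15, the mouse counterpart of human FGF19 and a ligand of retinal progenitors, was concentrated in progenitor-like cells. Progenitor-like cells had 6496 UMIs (344 CPM, 336 to 353) in the control and 8561 UMIs (371 CPM, 363 to 379) in the mutant, and they held 79.4% and 84.7% of all Fgf15 UMIs of their libraries. Neurogenic-like cells, which follow progenitors, were at 46.7 and 48.4 CPM. Every other main class lay at 21.2 CPM or less, and most neighbours in that order overlapped. Thinned, 24.0% of control and 25.1% of mutant progenitor-like cells held an Fgf15 UMI, against 3.18% and 0.613% of endothelial-like cells, which should lack it (medians of 4466 and 9129.5 UMIs). The unthinned shares in progenitor-like cells were 57.2% and 60.8%.

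In RPE-like cells Fgf15 had 24 UMIs (7.43 CPM, 4.76 to 11.1) in the control and 51 UMIs (21.2 CPM, 15.8 to 27.9) in the mutant, a log2 ratio of 1.40 (0.78 to 2.28). Endothelial-like cells were at 18.0 and 14.5 CPM and white blood-like cells at 27.6 and 24.6 CPM, and neither class should transcribe the gene. The control RPE-like level lies below both, and the mutant level lies between them, with an interval that overlaps that of each. Thinned shares in RPE-like cells were 0.769% (3 of 390) and 2.78% (5 of 180), with unthinned shares of 3.27% and 11.1%. By depth the direction was not stable: up to 4000 UMIs the counts were 14 and 1 (log2 ratio −1.53), and over 8000 UMIs 9 and 37 (1.98). In sex-matched cells the log2 ratio was 2.44 in Xist-only cells, on 2 and 24 UMIs, and 0.59 in Y-only cells, on 16 and 9. Per UMI of Hes5, another progenitor gene, Fgf15 stood at 0.106 in control and 0.287 in mutant RPE-like cells and at 0.157 and 0.169 in progenitor-like cells. The mutant ratio in RPE-like cells is thus above that of progenitor-like cells and the control ratio below it, on few UMIs.

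In progenitor-like cells none of the 9 measured members passed 1.5-fold, where 1.40% of 12414 genes were higher by that much and 1.73% lower. Fgf15 differed by a log2 ratio of 0.11 (0.06 to 0.15), Spry2 was at 187 and 196 CPM (0.07), Etv5 at 97.4 and 101 CPM (0.05) and Etv4 at 20.5 and 23.2 CPM (0.17). Over all cells these counting intervals leave out 1.5-fold for each of these, but subsets differed. In Xist-only cells (75 control cells) Spry2 was at 0.74 (0.30 to 1.22) and Fgf15 at 0.53 (0.22 to 0.86). In Y-only cells they were at 0.12 and 0.36. Over 8000 UMIs Fgf15 was at −0.12 (−0.23 to −0.02) and Spry2 at 0.04. Over all cells Spry4 was at 8.27 and 6.24 CPM (−0.36, −0.74 to −0.07). In Y-only cells it was at −1.22 (−2.42 to −0.57) on 113 and 12 UMIs, and in Xist-only cells at 0.23 on 2 and 113 UMIs. The largest difference over all cells was that of Dusp6, at 94.6 CPM (90.2 to 99.0) in the control and 129 CPM (124 to 133) in the mutant, a log2 ratio of 0.44 (0.36 to 0.53). Fos was also higher in these cells, at 225 and 301 CPM (0.42), as was Egr1 at 207 and 240 CPM (0.21).

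Split by cell cycle genes, Dusp6 was higher in the mutant in cells with S genes (0.43), with G2/M genes (0.36) and with neither (0.71, 0.53 to 0.91). By sex-linked transcripts the log2 ratio of Dusp6 was 0.61 (0.46 to 0.77) in Y-only cells (2222 and 608 cells), where Fos was at 0.09. It was 0.16 (−0.29 to 0.66) in Xist-only cells, a set with 75 control cells. Over 8000 UMIs it was 0.16 (−0.06 to 0.39), and up to 4000 UMIs 0.60. The size of the Dusp6 difference thus depends on which cells are taken, and what part sex, depth or dissociation has in it was not tested.

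**Figure D3:**
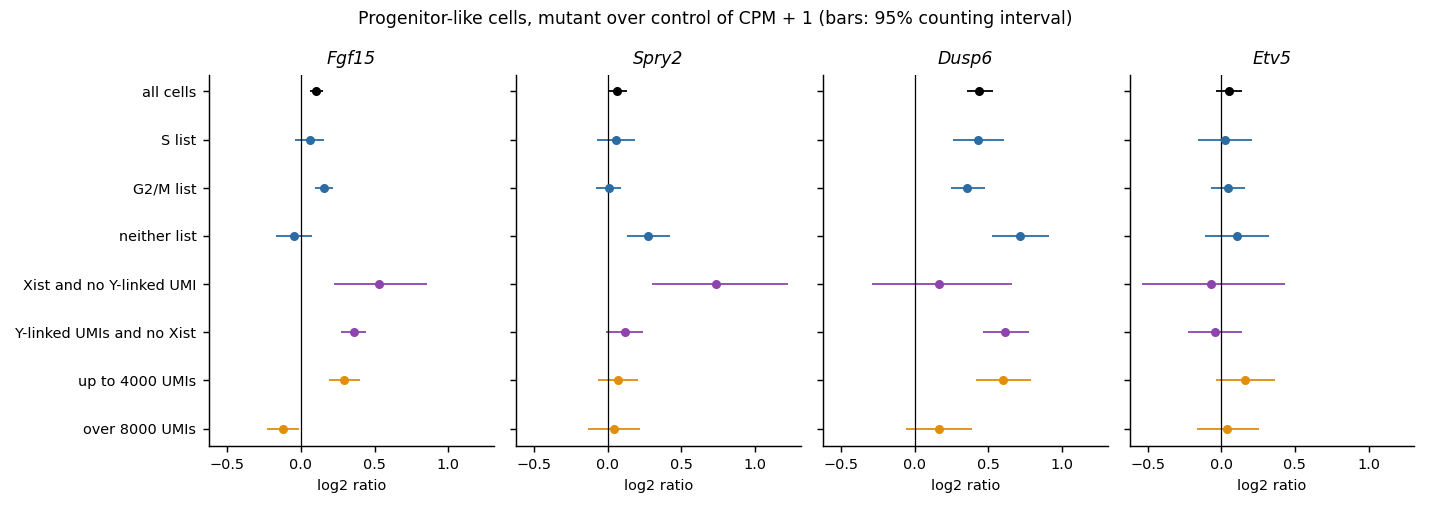
Log2 ratio of mutant over control of CPM + 1 in progenitor-like cells for Fgf15, Spry2, Dusp6 and Etv5, over all cells (black), by cell cycle genes (blue), by sex-linked transcripts (purple) and by depth (orange), with 95% counting intervals. Dusp6 lies above 0 in all 8 sets, from 0.16 to 0.71, and Etv5 stays near 0.

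In the other classes few members passed 1.5-fold, and those that did were lower in the mutant. Of all genes in photoreceptor-like cells 2.72% were that much higher and 2.12% lower, against 1 of 5 measured members. The member count was 1 of 4 in amacrine-like cells (3.01% of all genes higher and 2.03% lower), 2 of 8 in endothelial-like cells (2.34% and 4.51%) and 1 of 10 in mesenchyme or fibroblast-like cells (0.921% and 3.22%). None of 8 passed in neurogenic-like cells (1.94% and 1.56%) and none of 10 in pericyte-like cells (3.59% and 2.67%). Over all cells, neurogenic-like cells had Dusp6 at 58.0 and 73.5 CPM (log2 ratio 0.34), Spry2 at 73.3 and 84.9 CPM (0.21) and Etv5 at 18.1 and 24.8 CPM (0.44), all with intervals above 0. These directions did not hold in every subset. Dusp6 was lower in the mutant in cells of up to 4000 UMIs and in Xist-only cells. Spry2 and Etv5 were lower in cells over 8000 UMIs. In amacrine-like cells Spry1 was at 16.7 and 8.95 CPM (−0.83, −1.55 to −0.26), while Spry2 stood at 115 and 117 CPM.

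Vascular cells arise outside the early eye field, and some members differed there too. In endothelial-like cells Spry2 was at 48.2 and 28.5 CPM (−0.74, −1.23 to −0.31) and Spry1 at 97.7 and 120 CPM (0.30, 0.05 to 0.55), opposite in direction. Their Dusp6, the highest of the main classes, was at 181 and 169 CPM (−0.09). In mesenchyme or fibroblast-like cells Spry2 was at 67.1 and 49.7 CPM (−0.42) and Etv5 at 17.4 and 12.5 CPM (−0.44), but without 1 shallow cluster of 716 control and 43 mutant cells these log2 ratios were −0.10 and −0.12. The ratio of Spry2 in RPE-like cells (−1.88 to −1.19) lay below that in endothelial-like cells, although the interval of the latter reached −1.23.

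**Figure D4:**
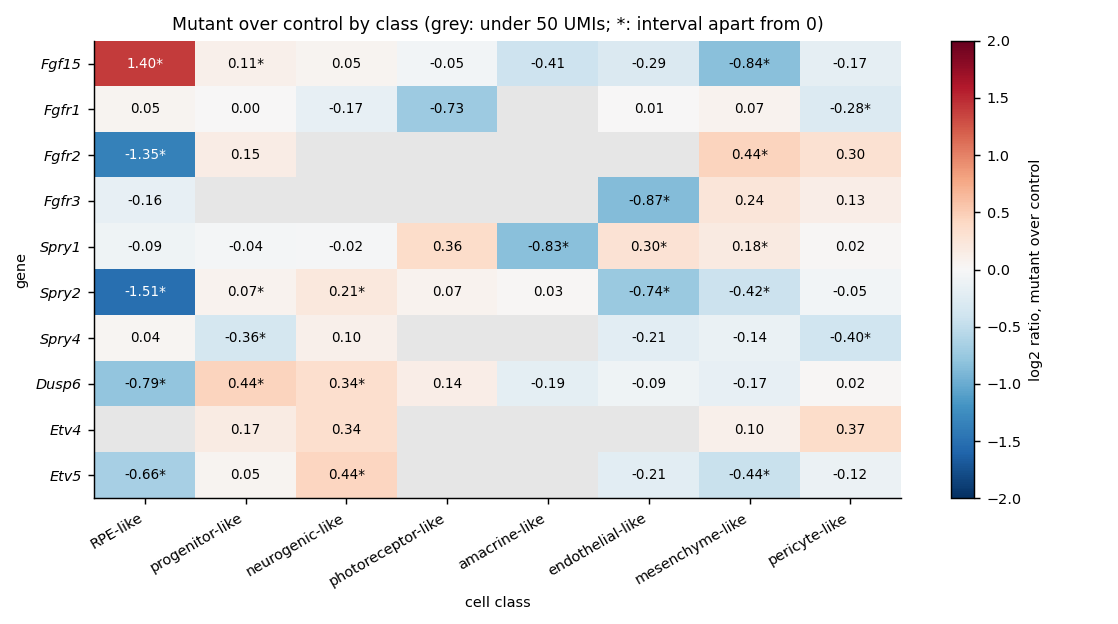
Log2 ratio of mutant over control by gene (rows) and cell class (columns), from blue (lower) to red (higher), with the ratio printed and a star where its 95% counting interval does not include 0. Grey cells had under 50 UMIs. The RPE-like column holds the extremes, from −1.51 for Spry2 to 1.40 for Fgf15.

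Spry1 had its highest main class in pericyte-like cells (147 and 149 CPM) and Spry4 in endothelial-like cells (39.1 and 33.7 CPM), each overlapping its neighbour in at least 1 library. Among the small classes astrocyte-like cells (31 and 34 cells) held Spry1 at 389 and 415 CPM, Spry2 at 233 and 175 CPM, and Etv4 at 62.5 and 42.2 CPM, above every main class in the control. Etv4 and Etv5 had their highest main class in progenitor-like cells in both libraries, with Etv5 second in RPE-like cells. In the mutant that second place was not apart by interval, as RPE-like cells (25.3 CPM) overlapped neurogenic-like cells (24.8 CPM). White blood-like cells held Etv5 at 42.3 and 31.8 CPM, against 40.6 and 25.3 CPM in RPE-like cells. Whether white blood-like cells transcribe Etv5 themselves was not tested.

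A wider list of 55 pathway genes gave the setting. In RPE-like cells 28 of them were measured, of which 1 was at least 1.5-fold higher (6.17% of all measured genes were) and 5 lower (9.95%). Past 2-fold were Fgfbp3, which encodes a binding protein that releases FGFs from matrix, at 83.0 and 29.9 CPM (log2 ratio −1.44, −1.87 to −1.09), and Flrt3, a membrane protein that binds FGF receptors, at 10.5 and 26.6 CPM (1.26, 0.71 to 1.98). The lower genes short of 2-fold were Fgfrl1, a receptor without kinase (−0.71), the docking protein genes Frs2 (−0.62) and Gab1 (−0.65), and cyclin D1, Ccnd1 (−0.60). Of 15 measured adaptor and ERK cascade genes the other 13 lay within 1.5-fold, Mapk3 at −0.18 among them, and so did the other inhibitors measured, Spred1 (−0.01), Spred2 (0.58) and Dusp4 (−0.10). In progenitor-like cells 39 were measured, and only Spred3 passed 1.5-fold, at 4.08 and 7.36 CPM (0.72), where 1.40% of all genes were that much higher and 1.73% lower. Fgfbp3, lower in RPE-like cells, was higher there, at 48.8 and 72.3 CPM (0.56).

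The genes most like each member were found by Pearson correlation of log2(CPM + 1) over 16 points, the 8 classes in both libraries, among 9696 genes with a mean of at least 10 CPM. These points share their library, depth and class borders, so the values are a description. Fgf15 was most like Sema4d (r = 0.96), Prss56 (0.96) and Ccnd1 (0.95), and Fgfr2 was most like Ak3 (0.98) and Itgav (0.96). Fgfr1 was closest to Efemp2 (0.97), Fgfr3 to Acaa2 (0.96), Spry1 to Myl12a (0.97), Spry4 to Acsf2 (0.99) and Dusp6 to Sept10 (0.96). Etv4 was closest to Mcm6 (0.92) and Etv5 to Pawr (0.95), while Spry2 had no gene above 0.86 (Uck1).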

How the data were processed

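Cell Ranger 7.1.0 per the labels (3.1.0 in the matrix headers) was used by the authors to count UMIs of 10x 3′ libraries on mm10, and the deposited matrices hold these raw counts without normalization. The annotation used for counting is not given in the sources used here. Cells needed 200 genes or more and mitochondrial UMIs of 15% or less. The upper limit of 2000 UMIs in the study's methods was an alternative only, since 80.2% of control and 92.1% of mutant barcodes exceed it. Scrublet scores (scanpy 1.11.5) removed doublets at 0.8% per 1000 barcodes (1615 and 1176 barcodes), as its own threshold marked 0% of the control. Library totals were 79017429 and 76272867 UMIs. Seurat 5.3.0 in R 4.3.3 integrated and clustered the cells (2000 variable genes, 30 components, Louvain resolution 1), with 88 genes, the members among them, kept out. A marker counted at 10% of cells and 2 times the other clusters, and 3 were needed for a name.

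Genes named are the 10 members, pathway genes past 2-fold in RPE-like cells and the 3 most alike genes per member, with others named after their values were seen and a few not reported here. Members and lists were chosen with earlier results of these data known. Counting was tried on simulated Poisson counts, which hold no spread between cells or animals, so such spread was not covered. Sequences are from RefSeq (GRCm38.p6).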

Additional observations from a re-analysis of the deposited data

Results flagged for a closer look

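Fgf15 differed in opposite directions in 2 classes: it was higher in mutant RPE-like cells (log2 ratio 1.40, 24 and 51 UMIs) and lower in mutant mesenchyme or fibroblast-like cells (−0.84, 271 and 90 UMIs), and the difference between the classes was not tested. The second value rests on a shallow cluster led by Gm26870 and Dpt, with 716 control and 43 mutant cells, and without it the log2 ratio was 0.33. Endothelial-like cells, which should lack Fgf15, stood at 18.0 and 14.5 CPM, against 7.43 and 21.2 CPM in RPE-like cells and 19.4 and 10.4 CPM in mesenchyme or fibroblast-like cells.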

How the results depend on the processing

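No paired analysis was possible because each genotype is 1 library and the labels give no replicate numbers, and no library was left out. An alternative was given a value only with at least 10 UMIs and 1 or more in each library, and 76 had none. At resolution 2 no cluster was named RPE-like. Subsets by depth and the mesenchyme set without its shallow cluster were chosen after seeing the data. The cause of a changed value was not tested.

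In RPE-like cells 4 to 7 members passed 1.5-fold under every alternative that gave a value, and Fgfr2, Spry2 and Dusp6 kept their direction in each. Etv5 lay within 1.5-fold with 10 CPM added (−0.52). Past 2-fold were 6.10% of all genes and 2 pathway list genes, against 16.1% and 6 past 1.5-fold. In progenitor-like cells the count of members rose from 0 to 2 with an upper limit of 2000 UMIs, with Xist-only cells and with Y-only cells, and to 1 with up to 4000 and 1 with over 8000 UMIs. Genes past 1.5-fold there were 3.13%, with 1.61% at a minimum of 200 UMIs and 0.87% past 2-fold, where 0 pathway list genes passed.

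Among ratios whose interval did not include 0, direction changed in these cases. With up to 4000 UMIs: Fgf15 in RPE-like cells (−1.53), Dusp6 in neurogenic-like (−0.019), Spry1 in endothelial-like (−1.33) and in mesenchyme or fibroblast-like cells (−0.10). With over 8000 UMIs: Fgf15 in progenitor-like (−0.12) and in mesenchyme or fibroblast-like cells (0.32), Spry2 (−0.18) and Etv5 (−0.065) in neurogenic-like cells. In Xist-only cells: Spry4 in progenitor-like (0.23), Dusp6 in neurogenic-like (−0.59) and Spry1 in endothelial-like cells (−0.20). Thinned to 1000 UMIs, Etv5 in RPE-like cells was at 0.037. Under the 2000 UMI limit Spry1 in mesenchyme or fibroblast-like cells was at −0.54, and without the shallow cluster Fgf15 there was at 0.33.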

Other observations

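Listed ligand genes under 50 UMIs in RPE-like cells, named after their values were seen, included Fgf8 with 36 UMIs (control) and 3 (mutant), Fgf1 with 40 and 7, Fgf7 with 19 and 2, and Fgf12 with 16 and 30. Fgf9 had 31 and 20 UMIs (log2 ratio −0.19, −1.10 to 0.65).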
